A study of Homo sapiens with 17 samples.

Results

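A set of 8 genes of prostaglandin synthesis, inactivation and reception was followed through oncogene-induced senescence and SMARCA4 knockdown. The list was drawn up by gene name, with earlier results of these data known, and makes up 8 of the 62754 gene rows of the count tables. They are the cyclooxygenases PTGS1 (ENSG00000095303) and PTGS2 (ENSG00000073756), the terminal synthases PTGES (ENSG00000148344) and PTGIS (ENSG00000124212), the inactivating dehydrogenase HPGD (ENSG00000164120) and the receptors PTGER2 (ENSG00000125384), PTGER4 (ENSG00000171522) and PTGFR (ENSG00000122420). Of these, 7 of 8 passed the filter on low counts that left 19473 genes to test, and HPGD did not. PTGIS passed through its DMSO libraries alone, so counts over the list are given for the 6 genes with counts in every library.

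The cells were IMR90 ER:RAS, human lung fibroblasts into which a retroviral vector brought RASG12V as a fusion with the oestrogen receptor, an oncogene that stays off until 4-hydroxytamoxifen (4OHT) is added, in a culture of 1 cell line. All cells carried this construct and had been reverse transfected with an siRNA the day before treatment, and RNA was taken on day 7 of 4OHT or of its control, DMSO. There were 5 libraries of DMSO with a non-targeting siRNA (DMSO siNT), 6 of 4OHT with a non-targeting siRNA (4OHT siNT) and 6 of 4OHT with an siRNA against SMARCA4 (4OHT siSMARCA4), an ATPase of the SWI/SNF chromatin remodeller. Each label also carried a number after the siRNA, 2 or 4, and a tag ending in V or VM whose meaning was not given. The libraries of a group pool both numbers, so libraries are named below by the number and the tag, as in 2-1V. The V libraries were 2-1V and 2-2V of DMSO siNT and 2-3V, 4-2V and 4-3V of 4OHT siSMARCA4. All libraries of 4OHT siNT were VM, so the tag was unbalanced between the groups. Growing cells in DMSO received no siRNA against SMARCA4, and the effect of the knockdown there was not measured. Nothing in the labels says that the libraries of a group came from separate cultures, and the p-values then measure the spread between these libraries, which may be technical.

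Prostaglandins are made from arachidonic acid, which phospholipases release from membranes. A cyclooxygenase, either the widely expressed PTGS1 or the inducible PTGS2, turns it into prostaglandin H2, and a terminal synthase decides the product: PTGES makes prostaglandin E2 and PTGIS makes prostacyclin. HPGD starts the breakdown of prostaglandin E2, PTGER2 and PTGER4 are receptors for it that raise cAMP, and PTGFR is the receptor of prostaglandin F2-alpha. In fibroblasts PTGS2 and PTGES are known as genes that inflammatory cytokines raise together.

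Library totals lay between 39.1 and 69.0 M counts, where M stands for 1000000. SMARCA4 was at 198 ± 19.2 CPM (counts per M library counts, scaled by TMM factors; SD, n = 5) in DMSO siNT, 268 ± 13.2 CPM (n = 6) in 4OHT siNT and 88.1 ± 22.8 CPM (n = 6) in 4OHT siSMARCA4, and the highest siSMARCA4 library lay below the lowest siNT library. The V libraries of 4OHT siSMARCA4 kept more SMARCA4, at 103, 127 and 82.7 CPM, than its VM libraries, at 69.0, 78.3 and 68.4 CPM. As a check of the labelled cell type, 9 fibroblast markers were present in every group. Their summed level fell from 22998 to 27682 CPM in DMSO siNT to 13475 to 17608 CPM in 4OHT siNT and 7587 to 10900 CPM in 4OHT siSMARCA4, with 7 of 9 called lower in each comparison and VIM and PDGFRA in none. Of all genes, 27.4% were called lower with 4OHT, 13.8% with the knockdown and 28.6% with both. The 6 epithelial markers summed to at most 1.29 CPM and the 8 leukocyte and platelet markers to at most 0.548 CPM in any library. The 6 endothelial markers summed to 3.47 to 10.9 CPM in DMSO siNT, 10.1 to 14.9 CPM in 4OHT siNT and 7.79 to 11.4 CPM in 4OHT siSMARCA4, and VWF was called higher with 4OHT (1.11 to 3.76 CPM) while TEK was not called. PECAM1 (0.0145 CPM in DMSO siNT and 0.936 CPM in 4OHT siNT), CLDN5 and KDR lay under the filter in DMSO and passed through 4OHT, so no count of calls is given. With the knockdown PECAM1 was called lower and none higher. CDH5 lay at 0.118 CPM or less throughout, and the part of the endothelial markers in the results with 4OHT was not tested. Counts on repeat loci with at most 20 counts over all libraries had medians of 2679, 2671 and 4310 CPM in the same order and so stood higher with the knockdown. DMSO siNT 2-2V, at 5240 CPM, and 4OHT siSMARCA4 4-2VM, at 2902 CPM, lay apart from their groups. In bulk RNA, a smaller share of cells that express a gene cannot be told apart from less RNA of it per cell.

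The upstream sequences of both cyclooxygenases and of PTGES are shown, as the 3 enzymes of the list with counts in every library. Each is the 250 bases before the RefSeq start of the gene (GRCh38.p14), read 5′ to 3′ on the strand of the gene: PTGS1 from chr9:122370283-122370532 on the plus strand, the first of 2 start sites listed for it, PTGS2 from chr1:186680424-186680673 on the minus strand and PTGES from chr9:129753043-129753292 on the minus strand. Capitals mark matches, on either strand, to any of 6 motifs: GGG and CC with any 5 bases between them for kappaB, TGACG for the core of a cAMP response element, TGANTCA for AP-1, TTNNGNAAT for C/EBP, TATAAA for the TATA box and GGGCGG for the GC box.
PTGS1: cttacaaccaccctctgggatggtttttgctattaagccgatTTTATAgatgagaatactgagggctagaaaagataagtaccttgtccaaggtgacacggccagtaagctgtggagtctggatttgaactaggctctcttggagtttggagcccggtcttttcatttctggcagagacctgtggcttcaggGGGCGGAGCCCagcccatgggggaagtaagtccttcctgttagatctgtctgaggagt
PTGS2: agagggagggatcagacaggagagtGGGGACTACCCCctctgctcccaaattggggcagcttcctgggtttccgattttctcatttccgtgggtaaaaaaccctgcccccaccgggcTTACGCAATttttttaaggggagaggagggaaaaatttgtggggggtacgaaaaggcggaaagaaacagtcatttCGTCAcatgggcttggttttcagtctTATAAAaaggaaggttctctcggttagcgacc
PTGES: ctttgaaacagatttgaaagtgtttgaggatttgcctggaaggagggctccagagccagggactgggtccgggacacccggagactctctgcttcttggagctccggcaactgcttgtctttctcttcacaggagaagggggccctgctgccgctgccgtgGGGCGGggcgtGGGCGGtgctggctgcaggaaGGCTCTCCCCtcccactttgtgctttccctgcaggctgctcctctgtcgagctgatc
In PTGS2, the kappaB letters matched in overlapping positions between 225 and 214 bases before the start, the C/EBP letters at 133 to 125, the cAMP core on the reverse strand at 58 to 54 and the TATA box at 32 to 27. In PTGES, the kappaB letters matched once on the reverse strand, at 57 to 48, and the GC box at 89 to 84 and 78 to 73. In PTGS1, TATAAA matched on the reverse strand at 208 to 203, and the kappaB letters, at 58 to 48, overlapped a GC box. The window of the other PTGS1 start site, not shown, held no TATAAA, a kappaB match at 55 to 46 and a GC box on the reverse strand at 202 to 197. None of the 3 windows shown held the AP-1 letters. Among the 35116 RefSeq windows of the same length, 54.4% held a kappaB match, 42.6% a GC box, 21.2% a cAMP core, 10.7% a TATA box, 9.85% a C/EBP match and 6.57% an AP-1 match. The kappaB and GC box letters are thus common, and a match is a description of the letters and not of a bound factor. The table held 7 of the 8 genes, and PTGIS was not among them. In windows not shown, the kappaB letters also matched in PTGER2, PTGER4 and the first HPGD start site, and not in PTGFR. The cAMP core matched in PTGER2, at 137 to 133, and in the other HPGD start site, at 77 to 73.

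The comparison of 4OHT siNT with DMSO siNT asked what oncogene-induced senescence changed. PTGS2 went from a low level to the highest of the list per exon length, PTGES rose as well, and PTGIS and the 3 receptors fell. Of the 6 genes with counts in every library, 2 were called higher and 4 lower at an edgeR adjusted p under 0.05. This comparison moved much of the transcriptome, and 54.4% of all genes tested were called, 27.0% higher and 27.4% lower. The medians were -0.88 over these 6 genes and 0.00 over all genes, as log2 fold changes.

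**Figure D1:**
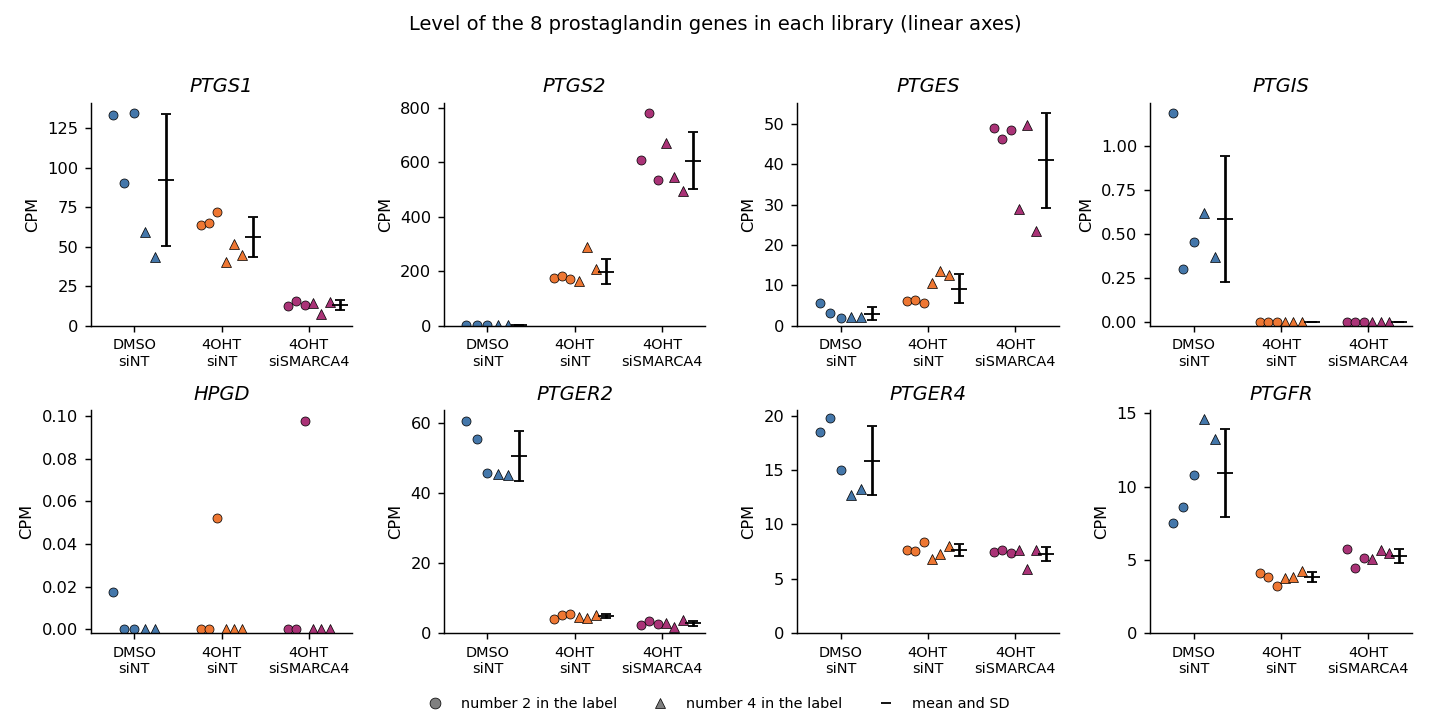
Level of each of the 8 genes in every library, in CPM on linear axes that differ between panels, for 5 DMSO siNT, 6 4OHT siNT and 6 4OHT siSMARCA4 libraries. Circles and triangles mark number 2 and number 4 in the label, and bars give the mean and SD, which are left out for HPGD. PTGS2 and PTGES rise from left to right, PTGS1 and PTGER2 fall, and PTGIS lies at 0 in all 12 4OHT libraries.

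PTGS2 (chr1:186671791-186680922) is the cyclooxygenase that stimuli induce. It lay at 1.16, 1.33, 1.49, 2.32 and 2.46 CPM in the 5 DMSO siNT libraries. In 4OHT siNT the 6 libraries ranged from 165 to 288 CPM, with a median of 179. The lowest 4OHT library was thus far above the highest DMSO library. The log2 fold change was 6.82 (adjusted p 1.12e-13 by edgeR, SE 0.24), a 113-fold rise, from 1.75 ± 0.596 (SD, n = 5) to 199 ± 46.1 CPM (n = 6). Library 4-2VM stood above the other 5 in 4OHT siNT, which lay between 165 and 207 CPM.

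PTGS1 (chr9:122370530-122395703) is the cyclooxygenase found in most tissues at a steady level. In DMSO siNT it lay at 133, 90.4 and 135 CPM in the 3 number 2 libraries and at 59.3 and 43.5 CPM in the 2 number 4 libraries. In 4OHT siNT it was between 40.4 and 71.8 CPM, with a median of 57.7, and the ranges overlapped. The log2 fold change was -0.71 (adjusted p 0.0239 by edgeR, SE 0.25). Within number 2 it was -0.84 (adjusted p 0.00467 by edgeR, SE 0.22) and within number 4 it was -0.17 (adjusted p 0.583 by edgeR, SE 0.24). The difference between the numbers was 0.67 (SE 0.33, 95% interval -0.03 to 1.37, edgeR adjusted p 0.21). The call was lost without DMSO siNT 2-1V (-0.56, edgeR adjusted p 0.0756), DMSO siNT 2-2VM (-0.56, edgeR adjusted p 0.0736), 4OHT siNT 4-1VM (-0.63, edgeR adjusted p 0.0543) or 4OHT siNT 4-3VM (-0.65, edgeR adjusted p 0.0517), so the call of PTGS1 in this comparison rested on each of these libraries.

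PTGES (chr9:129738331-129753042) makes prostaglandin E2 from the cyclooxygenase product. It lay at 5.66, 3.05, 1.86, 2.23 and 2.25 CPM in DMSO siNT. In 4OHT siNT it lay at 5.55, 6.08 and 6.48 CPM in the number 2 libraries and at 10.6, 12.7 and 13.7 CPM in the number 4 libraries. A single DMSO library, 2-1V, exceeded the lowest 4OHT library, so the groups overlapped. The log2 fold change was 1.61 (adjusted p 0.000269 by edgeR, SE 0.32). It was 0.78 (adjusted p 0.0485 by edgeR, SE 0.31) within number 2 and 2.46 (adjusted p 6.35e-05 by edgeR, SE 0.38) within number 4, and the difference of 1.68 (SE 0.48) did not pass the threshold over all genes (edgeR adjusted p 0.062). A fit to the number 2 libraries alone gave 0.74 (edgeR adjusted p 0.0606), which ends the call there. The highest DMSO libraries, 2-1V at 5.66 CPM and 2-2V at 3.05 CPM, were the V libraries, and both were of number 2. The VM libraries of DMSO siNT lay at 1.86, 2.23 and 2.25 CPM, below every library of 4OHT siNT, all of them VM. The part of the tag in the overlap and in the difference between the numbers was not tested.

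PTGIS (chr20:49503874-49568137), the prostacyclin synthase, was lost with 4OHT. It had 68, 15, 26, 32 and 22 counts in the 5 DMSO siNT libraries and 0 counts in each of the 12 libraries with 4OHT. Its level in DMSO was low, 0.585 ± 0.357 CPM (SD, n = 5). With 3 counts over the whole group taken as the upper limit of a group at 0, its level in DMSO siNT was 59.0 times that limit in 4OHT siNT and 63.9 times that limit in 4OHT siSMARCA4. With the error of the 163 DMSO counts included, the lower bounds of these ratios in exact 95% counting intervals were 47.4 and 51.3. These bounds cover counting error only, and no p is given because the gene entered the test through the group where it was high.

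HPGD (chr4:174490175-174523154), the enzyme that inactivates prostaglandin E2, was barely detected. It had 1 count in 1 of 5 DMSO siNT libraries, 2 counts in 1 of 6 4OHT siNT libraries and 5 counts in 1 of 6 4OHT siSMARCA4 libraries. The ratio of 4OHT siSMARCA4 to 4OHT siNT was 2.31, with an exact 95% counting interval of 0.378 to 24.2. All 8 counts in the series came from 3 libraries, and no difference was detectable at this depth.

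The 3 receptors of the list moved the other way from PTGS2. PTGER2 (chr14:52314305-52328598) lay at 60.6, 55.4, 45.8, 45.4 and 45.2 CPM in DMSO siNT. In 4OHT siNT it lay between 4.05 and 5.55 CPM, with a median of 4.93. Every 4OHT library was far below every DMSO library, with a log2 fold change of -3.39 (adjusted p 2.25e-12 by edgeR, SE 0.15), a 10.5-fold fall. PTGER4 (chr5:40679915-40693735) lay at 18.5, 19.8, 15.04, 12.7 and 13.3 CPM in DMSO siNT and at 6.81 to 8.40 CPM in 4OHT siNT, without overlap. Its log2 fold change was -1.06 (adjusted p 2.41e-07 by edgeR, SE 0.11). PTGFR (chr1:78303884-78540701) lay at 7.54, 8.58 and 10.8 CPM in the number 2 and at 14.6 and 13.2 CPM in the number 4 libraries of DMSO siNT. It was at 3.22 to 4.24 CPM in 4OHT siNT, with a log2 fold change of -1.51 (adjusted p 5.79e-08 by edgeR, SE 0.15). Thus each of the 3 receptors had lower levels in all senescent siNT libraries than in any growing library, as had PTGIS. With PTGS2 higher in the same way, 4 of the 6 genes with counts in every library had groups that did not overlap, 1 higher and 3 lower, against 39.6% of all genes tested, 19.6% higher and the rest lower.

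The comparison of 4OHT siSMARCA4 with 4OHT siNT asked what the knockdown of SMARCA4 changed in senescent cells. PTGS2 and PTGES rose further while PTGS1 fell, so the knockdown carried PTGS2 and PTGES further from their levels in growing cells. Of the 6 genes with counts in every library, 3 were called higher and 2 lower, where 24.2% of all genes tested were called, 10.4% higher and 13.8% lower. All 5 had groups that did not overlap, against 12.0% of all genes tested, 4.54% higher and 7.49% lower. The median log2 fold change was 0.19 over these 6 genes and -0.02 over all genes.

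PTGS2 reached 608, 780, 535, 670, 548 and 495 CPM in the siSMARCA4 libraries 2-1VM, 2-3V, 2-3VM, 4-2V, 4-2VM and 4-3V. The 6 siNT libraries in 4OHT had ended at 288 CPM. The log2 fold change was 1.61 (adjusted p 8.38e-06 by edgeR, SE 0.17), a 3.05-fold rise, to 606 ± 105 CPM (SD, n = 6). It was 1.86 within number 2 and 1.37 within number 4. With the sparse repeat counts as a covariate it was 1.90 (adjusted p 0.000239 by edgeR, SE 0.24).

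PTGES reached 48.9, 46.3, 48.6, 28.9, 49.9 and 23.4 CPM in the same 6 libraries, all above the highest siNT library at 13.7 CPM. The log2 fold change was 2.16 (adjusted p 6.60e-05 by edgeR, SE 0.29), a 4.46-fold rise from 9.18 ± 3.59 to 41.0 ± 11.7 CPM (SD, n = 6 each). It was 2.99 (adjusted p 1.80e-05 by edgeR, SE 0.31) within number 2 and 1.47 (adjusted p 0.00449 by edgeR, SE 0.29) within number 4. The 2 effects differed by -1.52 (SE 0.41, 95% interval -2.40 to -0.64), which was not past the threshold over all genes (edgeR adjusted p 0.0887). The 28.9 and 23.4 CPM of number 4 came from V libraries and the 49.9 CPM from a VM library, while the V library of number 2, at 46.3 CPM, lay near its VM libraries at 48.9 and 48.6 CPM. In 4OHT siNT, where all libraries were VM, the number 2 libraries started lower, at 6.04 ± 0.468 CPM, than the number 4 libraries, at 12.3 ± 1.57 CPM (SD, n = 3 each). With the sparse repeat counts as a covariate the rise was 2.29 (adjusted p 0.00167 by edgeR, SE 0.38).

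PTGS1 fell to 12.7, 15.5, 13.3, 14.2, 7.20 and 15.3 CPM in the same 6 libraries, below the lowest siNT library at 40.4 CPM. The log2 fold change was -2.11 (adjusted p 2.84e-05 by edgeR, SE 0.26), a 4.31-fold fall from 56.3 ± 12.5 to 13.0 ± 3.06 CPM (SD, n = 6 each). It was -2.27 within number 2 and -1.90 within number 4, and their difference was 0.37 (SE 0.31, 95% interval -0.30 to 1.04, edgeR adjusted p 0.609). Library 4-2VM, which also had the fewest sparse repeat counts of its group, lay below the other 5, and without it the log2 fold change was -1.99 (edgeR adjusted p 8.92e-05). With the sparse repeat counts as a covariate the fall was -2.19 (edgeR adjusted p 0.00149). The summed fibroblast markers fell in the same comparison, and their part in the fall of PTGS1 was not tested.

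**Figure D2:**
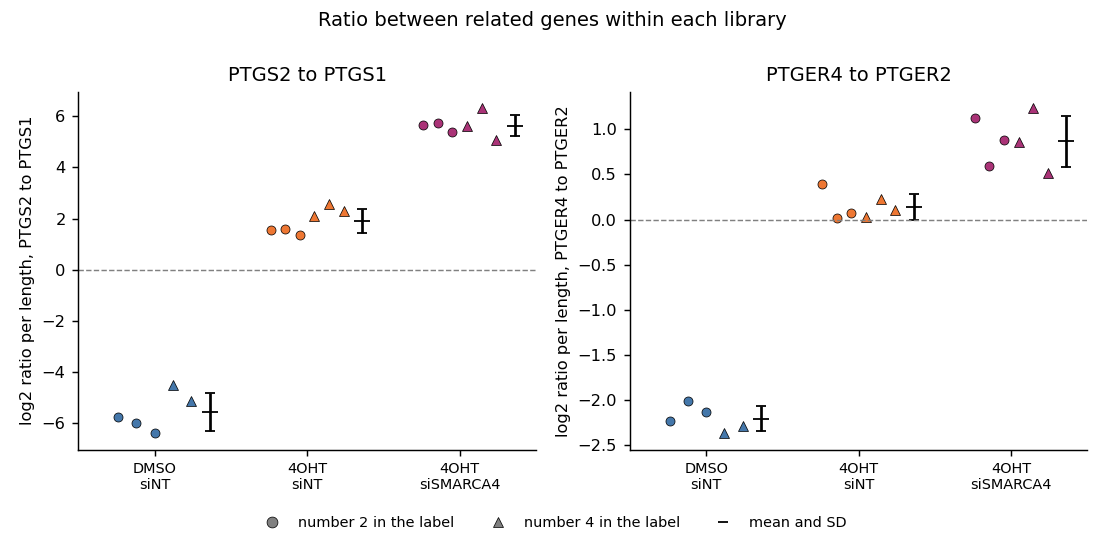
Log2 ratio per exon length of PTGS2 to PTGS1 (left) and of PTGER4 to PTGER2 (right) in each library, with the mean and SD of each group of 5, 6 and 6 libraries. The dashed line marks equal levels, and in both panels the 3 groups occupy separate ranges.

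The exchange between the cyclooxygenases was followed as a ratio within each library, which is independent of library scaling. Counts were divided by the summed exon length of each gene, 5784 bp for PTGS1 and 5484 bp for PTGS2. The log2 ratio per length of PTGS2 to PTGS1 was -5.76, -6.01, -6.42, -4.51 and -5.15 in DMSO siNT. It was between 1.34 and 2.55 in 4OHT siNT and between 5.09 and 6.32 in 4OHT siSMARCA4. PTGS2 therefore made up 2.28 ± 1.22% (SD, n = 5) of the summed level of both genes in growing cells, 78.4 ± 5.51% (n = 6) in senescent cells and 98.0 ± 0.534% (n = 6) in senescent cells with siSMARCA4. Their summed level per kilobase was 16.3 ± 7.23, 45.9 ± 8.18 and 113 ± 19.4 CPM in the same order. The mean log2 ratio was -5.57 ± 0.75, 1.90 ± 0.48 and 5.64 ± 0.41 (SD). In the step from growing to senescent cells the log2 fold changes were 6.82 for PTGS2 and -0.71 for PTGS1, and in the step from siNT to siSMARCA4 they were 1.61 and -2.11.

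The terminal synthases gave ratios in growing cells alone. The log2 ratio per length of PTGES to PTGIS was 3.98 ± 0.59 (SD, n = 5) in DMSO siNT, with a range from 3.40 to 4.91. No ratio could be formed in the 12 libraries with 4OHT, where PTGIS had no counts. PTGES therefore already stood above PTGIS before 4OHT. The ratio of PTGES to HPGD could be formed in 1 library of each group, with log2 values of 9.89, 8.28 and 10.5 in DMSO siNT, 4OHT siNT and 4OHT siSMARCA4, and rested on 1, 2 and 5 counts of HPGD.

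Among the receptors, the knockdown lowered PTGER2, raised PTGFR and left PTGER4 short of the threshold. PTGER2 lay at 2.37, 3.53, 2.80, 2.94, 1.75 and 3.71 CPM in the siSMARCA4 libraries, below the 4.05 to 5.55 CPM of 4OHT siNT. Its log2 fold change was -0.76 (adjusted p 0.00137 by edgeR, SE 0.15). With V or VM as a covariate it was -1.01 (edgeR adjusted p 2.62e-05), and in VM libraries alone -1.05 (edgeR adjusted p 0.000248). PTGER4 lay at 5.92 to 7.66 CPM, with a median of 7.54, against 6.81 to 8.40 CPM in 4OHT siNT, and the groups overlapped. Its log2 fold change was -0.06 (adjusted p 0.724 by edgeR, SE 0.11), with a 95% interval from -0.29 to 0.17, so a change of PTGER4 beyond these bounds was not seen. With the sparse repeat counts as a covariate it was -0.28 (edgeR adjusted p 0.168). PTGFR rose from 3.84 ± 0.356 to 5.25 ± 0.474 CPM (SD, n = 6 each), with siSMARCA4 libraries at 4.47 to 5.74 CPM. Its log2 fold change was 0.45 (adjusted p 0.0253 by edgeR, SE 0.14). The call was lost without 4OHT siNT 2-3VM (0.41, edgeR adjusted p 0.0583), 4OHT siSMARCA4 2-1VM (0.42, edgeR adjusted p 0.0543) or 4OHT siSMARCA4 4-2VM (0.43, edgeR adjusted p 0.052).

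PTGER2 and PTGER4 bind the same ligand, and their ratio per length was added after the values were seen. The log2 ratio of PTGER4 to PTGER2 was -2.21 ± 0.14 (SD, n = 5) in DMSO siNT, 0.14 ± 0.15 (n = 6) in 4OHT siNT and 0.87 ± 0.28 (n = 6) in 4OHT siSMARCA4. PTGER4 made up 17.8 ± 1.43%, 52.4 ± 2.52% and 64.5 ± 4.45% of the summed level of both receptors. PTGER4 itself fell with 4OHT, by -1.06 on the log2 scale, while PTGER2 fell more, by -3.39.

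The third comparison set senescent cells with siSMARCA4 against growing cells, and both the treatment and the siRNA differ in it. It shares its libraries with the other 2 comparisons, so the values are given side by side and not as further support. Again 2 of the 6 genes with counts in every library were called higher and 4 lower, where 55.1% of all genes tested were called, 26.5% higher and 28.6% lower. All 6 had groups that did not overlap, 2 higher and 4 lower, against 36.3% of all genes tested, 16.4% higher and 19.9% lower.

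PTGS2 was 346-fold higher than in DMSO siNT (log2 fold change 8.43, adjusted p 1.31e-14 by edgeR, SE 0.25) and PTGES 13.6-fold higher (3.77, adjusted p 2.03e-08 by edgeR, SE 0.34). In VM libraries alone the log2 fold change of PTGES was larger, at 4.53. PTGS1 was 7.07-fold lower (-2.82, adjusted p 4.31e-08 by edgeR, SE 0.27), and here it was called within number 2 (-3.11) and within number 4 (-2.07). The difference between the numbers was 1.04 (SE 0.33, 95% interval 0.33 to 1.75, edgeR adjusted p 0.117). PTGER2 was 17.7-fold lower (-4.14, adjusted p 2.36e-13 by edgeR, SE 0.16). PTGER4 stayed at -1.12 (adjusted p 9.88e-08 by edgeR, SE 0.11), beside -1.06 in 4OHT siNT. PTGFR was at -1.06 (adjusted p 4.12e-06 by edgeR, SE 0.14), beside -1.51 in 4OHT siNT, and so remained below growing cells. None of these 6 genes lay within its DMSO range in any siSMARCA4 library.

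**Figure D3:**
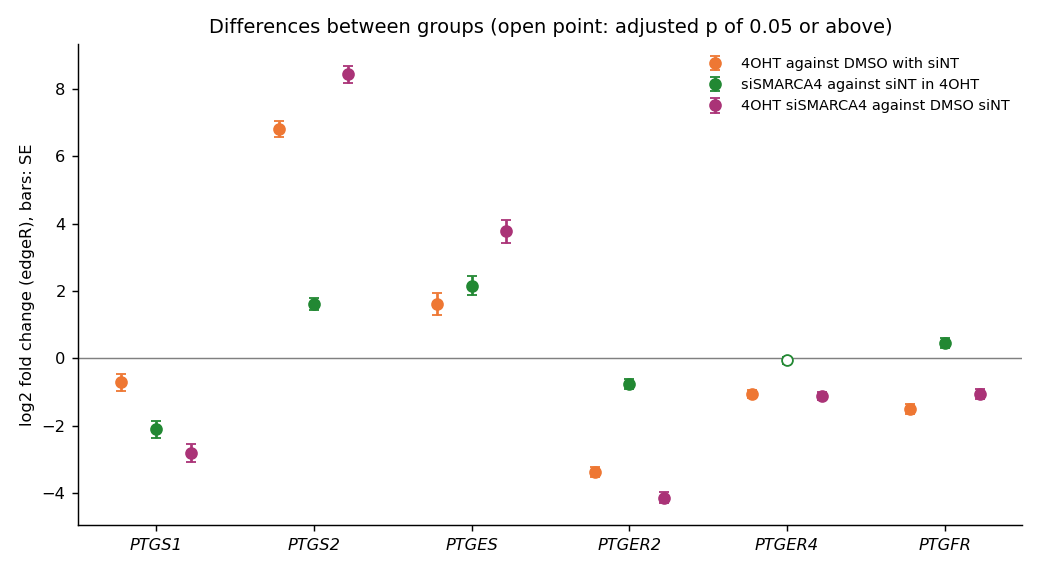
Log2 fold change by edgeR, with SE, of the 6 genes with counts in every library, for 4OHT against DMSO with siNT (orange), siSMARCA4 against siNT in 4OHT (green) and 4OHT siSMARCA4 against DMSO siNT (purple). PTGS2 reaches 8.43 and PTGER2 reaches -4.14, while the open point marks PTGER4, at -0.06 between siSMARCA4 and siNT.

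Levels of different genes were ordered per kilobase of exons. In DMSO siNT, PTGER2 stood first at 20.5 ± 2.89 CPM per kb (SD, n = 5), followed by PTGS1 at 15.9 ± 7.20, PTGER4 at 4.48 ± 0.893, PTGFR at 1.90 ± 0.520, PTGES at 1.59 ± 0.816, PTGS2 at 0.320 ± 0.109 and PTGIS at 0.105 ± 0.064. PTGER2 and PTGS1 overlapped between libraries, as did PTGFR and PTGES, and also PTGS2 and PTGIS. A receptor and PTGS1 thus led the list in growing cells, with PTGS2 close to the bottom.

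In 4OHT siNT the order was PTGS2 at 36.2 ± 8.41 CPM per kb (SD, n = 6), PTGS1 at 9.73 ± 2.15, PTGES at 4.85 ± 1.90, PTGER4 at 2.15 ± 0.158, PTGER2 at 1.96 ± 0.237 and PTGFR at 0.666 ± 0.062. PTGS1 overlapped PTGES, and PTGER4 overlapped PTGER2. In 4OHT siSMARCA4, PTGS2 led at 111 ± 19.2 CPM per kb (n = 6), PTGES was next at 21.7 ± 6.18, and PTGS1, at 2.25 ± 0.529, had dropped to the level of PTGER4, at 2.06 ± 0.192. PTGER2 and PTGFR followed at 1.16 ± 0.296 and 0.911 ± 0.082, and overlapped. PTGES and PTGS1 therefore changed places between siNT and siSMARCA4, with no overlap between them after the knockdown.

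**Figure D4:**
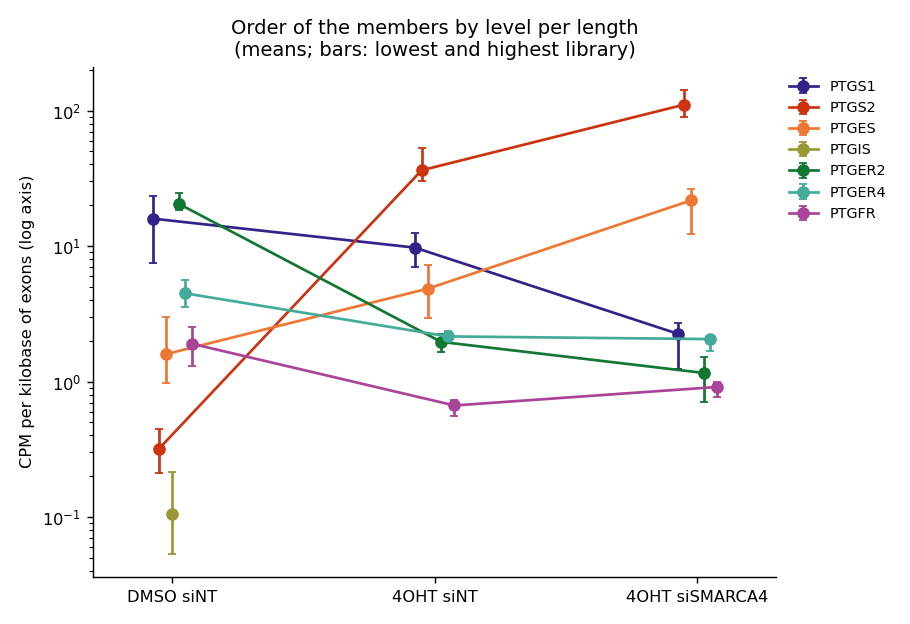
Mean level per kilobase of exons of 7 of the 8 genes in the 3 groups, on a log axis, with bars from the lowest to the highest library. PTGS2 climbs from 0.320 to 111 CPM per kb, crosses PTGS1, and PTGES crosses PTGS1 after the knockdown. PTGIS has no point in 4OHT because it had no counts there, and HPGD is left out.

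Some genes overlap a neighbour in genomic position. PACERR (ENSG00000273129, chr1:186680601-186683165) is a noncoding RNA on the opposite strand that overlaps the 5′ end of the annotated PTGS2 gene. It starts within the upstream window shown for PTGS2 and does not reach the RefSeq start. PACERR was at 0.015 ± 0.016 CPM (SD, n = 5) in DMSO siNT, 0.208 ± 0.116 CPM (n = 6) in 4OHT siNT and 0.353 ± 0.147 CPM (n = 6) in 4OHT siSMARCA4. It had 4 counts over the 5 DMSO libraries and 64 over the 6 libraries of 4OHT siNT, and no test is given there because it passed the filter through 4OHT alone. The difference after knockdown was 0.73 (adjusted p 0.194 by edgeR, SE 0.40). TTC33 lies across PTGER4 on the opposite strand with no shared exon bases, and was at 11.8 ± 0.861, 9.48 ± 1.29 and 11.3 ± 0.673 CPM, near the level of PTGER4 in 4OHT. It fell with 4OHT by 0.31 on the log2 scale (edgeR adjusted p 0.00747) and rose with the knockdown by 0.25 (edgeR adjusted p 0.0435). An unnamed noncoding RNA inside PTGS1 on the same strand, ENSG00000269970, shares no exon bases with it and was counted separately. This RNA had 61, 17 and 4 counts over the 3 groups. PTGS1 itself had 25586, 16781 and 4269 counts, and the part of this RNA in them was not tested. Reads had been counted by strand.

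The genes most like each enzyme were found by Pearson's r of log2 CPM over the 17 libraries, which share the 3 groups and are not independent, and no test was made. Nearest to PTGS1 were RAI2 (r 0.97), LINC00452 (r 0.96) and FMOD (r 0.96), of which FMOD encodes a small collagen-binding proteoglycan. Nearest to PTGS2 were TCIM, IRAK2, a kinase of interleukin-1 receptor signalling, and MMP10, a secreted metalloproteinase, each with r 0.99. IRAK2 went from 11.8 ± 0.484 (SD, n = 5) to 51.8 ± 7.19 and 76.8 ± 6.20 CPM (n = 6 each), and TCIM from 1.16 ± 0.259 to 26.7 ± 3.50 and 43.8 ± 6.78 CPM. MMP10 went from 0.067 ± 0.050 to 19.4 ± 7.40 and 91.4 ± 21.0 CPM, and so passed the filter on low counts through 4OHT. The mean of LINC00452 also lay under that filter in 4OHT siSMARCA4, at 0.163 ± 0.090 CPM. Nearest to PTGES were PAQR5 (r 0.98), MIR147B (r 0.97) and C15orf48 (r 0.97). C15orf48 went from 1.74 ± 0.327 to 6.35 ± 3.05 and 26.5 ± 8.32 CPM. PAQR5 was at 5.56 ± 0.842, 8.80 ± 1.79 and 23.3 ± 4.78 CPM.

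The supply of arachidonic acid was examined with 15 genes, of which 12 could be tested. With 4OHT, 4 were called higher and 4 lower, and with the knockdown 3 were called higher and 1 lower. That is 8 and 4 of 12, beside 54.4% and 24.2% of all genes. PLA2G4A, the cytosolic phospholipase A2 that frees arachidonic acid, went from 2.34 ± 0.355 CPM (SD, n = 5) to 9.63 ± 2.42 and 17.7 ± 5.25 CPM (n = 6 each). Its log2 fold change was 2.04 with 4OHT (adjusted p 1.89e-07 by edgeR, SE 0.22) and 0.87 with the knockdown (adjusted p 0.00284 by edgeR, SE 0.19), the latter with overlap between groups. ACSL4, which activates arachidonic acid for storage in lipids, rose after the knockdown from 169 ± 24.4 to 343 ± 42.4 CPM (1.02, adjusted p 5.90e-05 by edgeR, SE 0.14). ANXA1, an inhibitor of phospholipase A2, fell with 4OHT from 430 ± 111 to 142 ± 27.5 CPM (-1.59, adjusted p 5.53e-08 by edgeR, SE 0.15) and lay at 165 ± 18.0 CPM with siSMARCA4. PLA2G4C rose with the knockdown by 0.57 (edgeR adjusted p 0.00098) and PLA2G4B fell by 0.42 on the log2 scale (edgeR adjusted p 0.0429), while PLA2G6 rose by 0.93 (edgeR adjusted p 0.000316) and PLAAT3 fell by 1.23 (edgeR adjusted p 0.000256) with 4OHT. MGLL, a lipase that splits monoglycerides, was lower in 4OHT siSMARCA4 than in DMSO siNT, at 138 ± 27.1 against 202 ± 28.5 CPM (-0.55, edgeR adjusted p 0.000673).

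Among 8 other prostanoid synthases tested, 2 were called higher and 1 lower with 4OHT, where 54.4% of all genes were called. With the knockdown 2 were called higher, where 10.4% of all genes were. AKR1C3 lay under the filter on low counts in siSMARCA4, so no count of lower calls is given there. PTGES2 and PTGES3, named prostaglandin E synthases like PTGES, had higher mean CPM than PTGES in each group. PTGES2 was at 57.8, 67.3 and 57.2 CPM in DMSO siNT, 4OHT siNT and 4OHT siSMARCA4 and was called in neither comparison. PTGES3 was at 245, 231 and 281 CPM in the same order. It was not called with 4OHT and was called higher with the knockdown (0.28, adjusted p 0.0323 by edgeR, SE 0.09). AKR1B1, an aldo-keto reductase that can form prostaglandin F2-alpha, followed PTGS2 in direction, from 198 ± 27.6 CPM (SD, n = 5) to 770 ± 53.5 and 1383 ± 330 CPM (n = 6 each). Its log2 fold change was 1.96 with 4OHT (adjusted p 2.51e-09 by edgeR, SE 0.15) and 0.85 with the knockdown (adjusted p 0.000282 by edgeR, SE 0.14), without overlap in either. The related AKR1C3 went from 2.60 ± 0.864 to 0.221 ± 0.057 CPM with 4OHT (-3.55, adjusted p 7.33e-09 by edgeR, SE 0.29), and it belongs to a family of near-identical genes among which multi-mapped reads are shared by estimate. TBXAS1, the thromboxane synthase, rose with 4OHT from 19.7 ± 3.00 to 41.4 ± 4.07 CPM (1.08, adjusted p 5.10e-08 by edgeR, SE 0.10) and was at 38.2 ± 3.86 CPM with siSMARCA4.

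In prostaglandin transport and further breakdown 6 genes were tested, of which 0 were called higher and 3 lower with 4OHT. This stands beside 54.4% of all genes in either direction. With the knockdown 1 was called higher, beside 10.4% of all genes. SLCO2A1, the transporter that takes prostaglandins into cells, was at 0.745 ± 0.180 CPM in 4OHT siNT and 0.155 ± 0.144 CPM in 4OHT siSMARCA4 (SD, n = 6 each). Its mean lay under the filter with the knockdown and it had passed through other groups, so no p and no count of lower calls are given there. CBR3 fell with 4OHT from 9.80 ± 1.97 to 3.59 ± 0.534 CPM (-1.45, adjusted p 6.93e-06 by edgeR, SE 0.20). PTGR2, a prostaglandin reductase, fell by 0.31 on the log2 scale with 4OHT (edgeR adjusted p 0.0179) and rose by 0.35 with the knockdown (edgeR adjusted p 0.0185). PTGR3, of the same family of reductases, was at 16.4 ± 1.65 CPM in 4OHT siSMARCA4 against 27.4 ± 2.41 CPM in DMSO siNT (-0.74, edgeR adjusted p 8.08e-06).

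Of the other prostanoid receptors and receptor regulators 10 were tested, of which 2 were called higher and 3 lower with 4OHT (54.4% of all genes in either direction), and 0 higher and 4 lower with the knockdown (24.2%). PTGIR, the prostacyclin receptor, rose with 4OHT from 3.41 ± 0.542 CPM (SD, n = 5) to 6.51 ± 1.06 CPM (n = 6) (0.93, adjusted p 0.000766 by edgeR, SE 0.21). It fell back to 3.22 ± 1.08 CPM with siSMARCA4 (-1.01, adjusted p 0.00122 by edgeR, SE 0.19). PTGIR was thus higher in 4OHT siNT, where its ligand's synthase, PTGIS, had no counts. In 4OHT siSMARCA4, where PTGIS had no counts either, PTGIR was not called against DMSO siNT (-0.08, edgeR adjusted p 0.76). TBXA2R, the thromboxane receptor, fell with 4OHT from 6.17 ± 0.393 to 1.82 ± 0.493 CPM (-1.76, adjusted p 2.89e-07 by edgeR, SE 0.19). PPARG, a nuclear receptor that prostaglandin metabolites can bind, fell from 43.7 ± 6.77 to 6.67 ± 1.13 CPM (-2.71, adjusted p 4.27e-10 by edgeR, SE 0.18) and lay at 8.33 ± 2.49 CPM with siSMARCA4. GRK2, a kinase that silences receptors, rose with 4OHT from 63.8 ± 5.82 to 77.7 ± 5.77 CPM (0.28 on the log2 scale, edgeR adjusted p 0.00406) and fell with the knockdown to 65.2 ± 5.52 CPM (-0.25, edgeR adjusted p 0.0177).

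**Figure D5:**
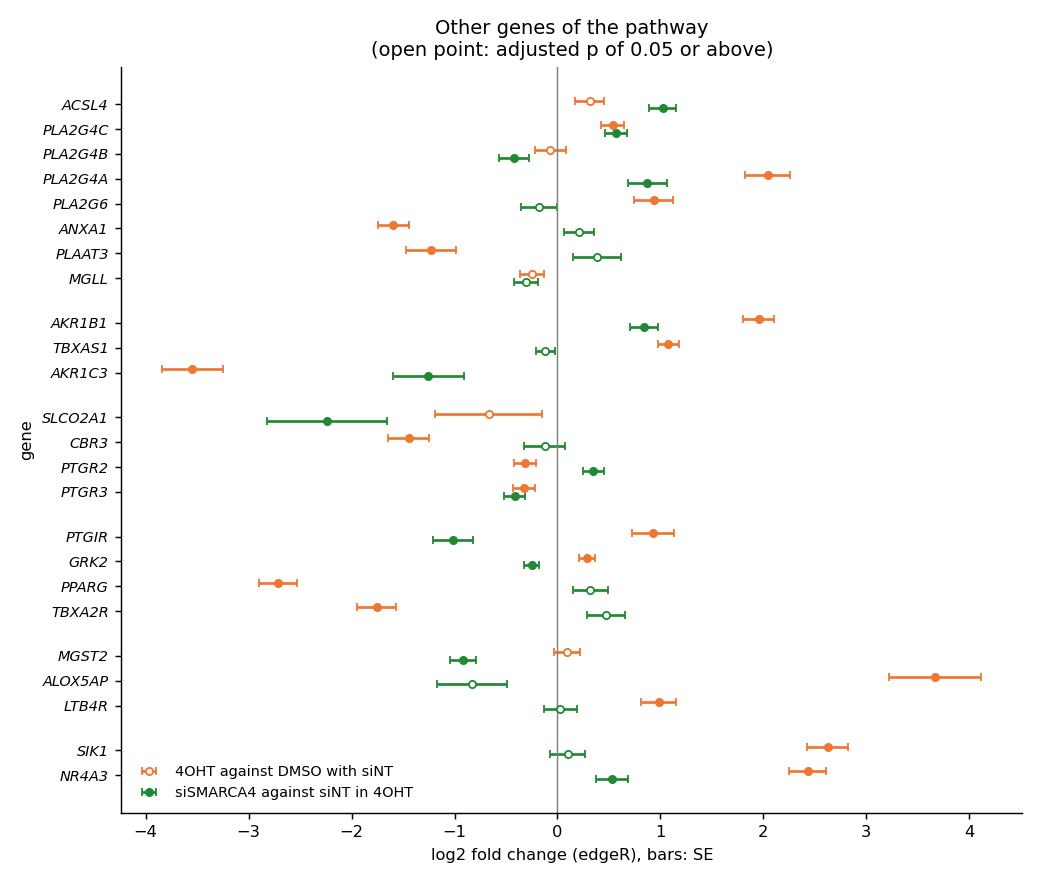
Log2 fold change by edgeR, with SE, of 24 other genes of the pathway, for 4OHT against DMSO with siNT (orange) and siSMARCA4 against siNT in 4OHT (green). Gaps separate arachidonate supply, other synthases, transport and breakdown, other receptors, the leukotriene branch and cAMP response genes, and open points did not pass the threshold. ALOX5AP with 4OHT, and AKR1C3 and SLCO2A1 with the knockdown, passed the filter on low counts through other groups than the lower one. AKR1B1 and PLA2G4A lie to the right of 0 in both comparisons, while PTGIR lies to the right with 4OHT and to the left with the knockdown.

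The leukotriene branch, which competes for the same fatty acid, had 12 genes listed, of which 6 could be tested. LTA4H, a hydrolase that forms leukotriene B4, was at 63.3, 66.0 and 63.6 CPM in the 3 groups and was not called, and the other 5 had group means of at most 4.47 CPM. Because ALOX5AP entered the test with 4OHT through the group where it was high, no count of calls is given there. With the knockdown 0 of the 6 were called higher and 2 lower, where 24.2% of all genes were called. ALOX5AP, the helper protein of 5-lipoxygenase, went from 0.089 ± 0.068 to 1.18 ± 0.292 CPM with 4OHT (SD, n = 5 and 6), with no test because it passed the filter through its 4OHT libraries alone, while ALOX5 itself had too few counts to test. LTB4R, a leukotriene B4 receptor, rose from 2.21 ± 0.469 to 4.37 ± 0.633 CPM (0.98, adjusted p 6.94e-05 by edgeR, SE 0.17). MGST2 fell with the knockdown from 4.47 ± 0.830 to 2.37 ± 0.127 CPM (-0.92, adjusted p 6.64e-05 by edgeR, SE 0.12).

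Genes that respond to cAMP, the messenger of PTGER2 and PTGER4, were listed as well. Of 11 tested, 7 were called higher and 0 lower with 4OHT, where 27.0% of all genes were called higher and 27.4% lower. With the knockdown 2 were called higher and 1 lower, beside 10.4% and 13.8% of all genes. Their median log2 fold change was 0.40 with 4OHT, beside 0.00 over all genes, and 0.03 with the knockdown, beside -0.02. SIK1, a salt-inducible kinase, rose with 4OHT from 2.196 ± 0.820 to 13.6 ± 2.46 CPM (SD, n = 5 and 6; 2.63, adjusted p 2.18e-09 by edgeR, SE 0.20) and lay at 14.5 ± 1.85 CPM with siSMARCA4 (n = 6). NR4A3, an orphan nuclear receptor, went from 2.48 ± 0.740 to 13.4 ± 2.16 and 19.3 ± 2.89 CPM, with 2.43 on the log2 scale for 4OHT (adjusted p 1.59e-09 by edgeR, SE 0.18) and 0.53 for the knockdown (adjusted p 0.0185 by edgeR, SE 0.15). These genes also respond to other signals, and cAMP was not measured.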

How the data were processed

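RNA was poly(A)-selected and sequenced with a strand-specific kit in 17 libraries. The authors trimmed reads with Cutadapt 4.7, aligned them to GRCh38 with HISAT2 2.2.1 and counted genes (Ensembl annotation) and repeat loci with TElocal by strand, sharing multi-mapped reads by estimate. They deposited expected counts as whole numbers, not normalised. Here, repeat loci were summed into 1261 subfamilies, and edgeR 4.0.16 (R 4.3.3; filterByExpr with minimum count 10 and total 15, TMM factors 0.949 to 1.08) fitted a quasi-likelihood model, whose terms were the 3 groups, to 19473 genes and 1026 subfamilies over all libraries, with Benjamini-Hochberg adjustment over genes. A call is an adjusted p under 0.05. Fold changes of genes named are edgeR values, and SE is the fold change over the square root of its F. Symbols were matched for 16406 genes tested. Gene positions and exon lengths came from GENCODE on the same build, a later annotation than that of the counts. DESeq2 1.42.0 was an alternative.

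The genes, the pathway and marker lists and the tests were chosen with earlier results of these data known. Named were the 8 genes, SMARCA4, overlapping genes, the 3 genes most like PTGS1, PTGS2 and PTGES by correlation of log2 CPM with a prior count of 2 (HPGD, also in this rule, had too few counts), and from each pathway list the 2 largest rises and the 2 largest falls called without overlap in each comparison. Others named in a sentence were chosen after their values were seen. Samples were grouped by their labels. The script was tested on simulated counts. Comparisons within siRNA numbers in 1 fit were added after the data were seen. Counts of 39.1 to 69.0 M per library limit the precision for genes of few counts.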

Additional observations from a re-analysis of the deposited data

Results flagged for a closer look

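A single library lay apart from the others of its group, by Dixon's criterion, in 3 of 22 sets of values with counts in more than 1 library, and chance alone meets this criterion in about 1 of 20 sets. PTGS1 was at 7.20 CPM in 4OHT siSMARCA4 4-2VM, below the 12.7 to 15.5 CPM of the other 5 libraries. PTGER4 was at 5.92 CPM in the same library, below the 7.42 to 7.66 CPM of the others, and without that library its difference from siNT was -0.01 (edgeR adjusted p 0.964). PTGS2 was at 288 CPM in 4OHT siNT 4-2VM, above the 165 to 207 CPM of the others. HPGD had counts in 1 library of each group, so that the criterion had to be met in those 3 further sets, at 0.0175 CPM in DMSO siNT 2-1V (1 count), 0.0523 CPM in 4OHT siNT 2-3VM (2 counts) and 0.0978 CPM in 4OHT siSMARCA4 2-3VM (5 counts).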

How the results depend on the processing

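Without PTGIS, whose direction its counts of 0 fix, none of 595 single-gene values under alternatives changed direction, 577 kept their side of the threshold and 18 lost a call. Besides the losses given beside PTGS1, PTGES and PTGFR above, the fall of PTGS1 with 4OHT was not called with V or VM as a covariate (-0.51, edgeR adjusted p 0.105), in VM libraries alone (-0.51, edgeR adjusted p 0.176) or in number 4 libraries alone (-0.21, edgeR adjusted p 0.536), PTGER2 was not called after knockdown in number 4 libraries alone (-0.72, edgeR adjusted p 0.0776), and PTGFR in neither number alone (0.49 in each, edgeR adjusted p 0.0543 and 0.0602), and the rise of SMARCA4 with 4OHT was not called in number 4 libraries alone (0.33, edgeR adjusted p 0.227) or within number 4 in 1 fit (0.38, edgeR adjusted p 0.126). Number 4 libraries alone called 3 of the 6 genes with counts in every library and 1198 of all genes between siSMARCA4 and siNT, against 5 and 4703. All genes called in that comparison came to 2144 with sparse repeat counts as a covariate and to 3126 within number 4 in a fit over all libraries. Libraries with the same replicate label did not steadily deviate together from their group means. The correlations of their deviations were 0.05, 0.30 and -0.10 between siSMARCA4 and siNT and -0.45, -0.31 and 0.21 between 4OHT and DMSO. Libraries with different labels spanned -0.28 to 0.31 and -0.53 to 0.61 in the same order. So few pairs cannot settle whether the replicate label paired the libraries. With that replicate label as a block, 3045 genes were called between siSMARCA4 and siNT and 6329 between 4OHT siSMARCA4 and DMSO siNT, against 10725 without it, and the fall of PTGS1 with 4OHT was not called (-0.44, edgeR adjusted p 0.102). The block also raised the log2 fold change of PTGES from 1.61 to 2.198 with 4OHT and from 3.77 to 4.86 between 4OHT siSMARCA4 and DMSO siNT. The cause of these changes was not tested. Leaving out 1 library gave 3717 to 5250 calls over all genes between siSMARCA4 and siNT and 4 or 5 calls on the list.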
